A study of Mus musculus with 18 samples.

Results

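The genes described here encode 10 subunits of the TF AP-1 (*Jun*, *Junb*, *Jund*, *Fos*, *Fosb*, *Fosl1*, *Fosl2*, *Atf3*, *Batf*, and *Batf3*), together with the open chromatin regions that lie in them or near them. A region was counted when its midpoint was in the gene or within 20 kb of either end in the GENCODE annotation of mm9. This rule took 74 of the 69499 open regions deposited for the study, and no region was counted for more than 1 gene. The regions come from fast-ATAC-Seq of isolated LMs (KCs in the sample titles), in which the Tn5 transposase cuts accessible DNA and leaves sequencing adapters there. There were 18 libraries of 50000 cells each, from male C57BL/6J mice fed a high-fat, high-sucrose diet for 4 weeks. The 3 genotypes were sampled at ZT10 (in the light) and ZT22 (in the dark), with 3 replicates in each of the 6 groups. All groups came from mice that received an AAV under the TBG promoter, which is active in hepatocytes and not in LMs. Control mice received AAV-TBG-GFP. *Reverb*-hDKO mice carried floxed *Rev-erb*α and *Rev-erb*β, and *Reverb/Scap*-hTKO mice also carried floxed *Scap*, and both received AAV-TBG-CRE as adults. The LMs of the mutant mice were therefore not themselves the target of the deletion.

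The deposited list joins all 18 libraries and gives only where each region starts and ends. No level, depth, or spread between replicates can be read from it, so no genotype or time of day was compared. Region counts, positions, widths, and sequences are reported as descriptions beside the same values over all regions or all genes, with no test. A region that was not called may still be accessible at a depth that is not known here. The starts of genes typical of several liver cells were looked up in the list. Of 10 genes per cell type, 6 had a region within 1000 bp of a start for Kupffer cells and macrophages, 10 for hepatocytes, 9 for endothelial cells, 3 for stellate cells, and 2 for T and B cells, beside 56.7% of all protein-coding genes. The macrophage count is thus near that share. *Csf1r*, *Lyz2*, *Marco*, and *Vsig4* were the macrophage genes without one. From which cells the regions at the AP-1 genes came was not tested.

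AP-1 is a dimer of basic leucine zipper (bZIP) proteins. JUN proteins pair with each other or with a FOS, ATF, or BATF protein, while FOS proteins need a JUN partner to bind DNA. The dimers bind the TPA response element (TRE, TGACTCA or TGAGTCA, which are reverse complements of each other), and dimers of JUN with ATF proteins prefer the longer cAMP response element (CRE, TGACGTCA). Many AP-1 genes are immediate early genes, which are transcribed within minutes of a stimulus without new protein synthesis. In macrophages, AP-1 takes part in the response to inflammatory signals and helps PU.1 to select enhancers. The study named JUND as a candidate regulator of rhythmic enhancers in LMs.

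The sequences of 3 regions at gene starts are shown first, as examples of what was open beside the first base of the gene. Each is written 5′ to 3′ in the direction of transcription of its gene, from NCBIM37, the assembly behind mm9. The *Jun* sequence (chr4:94718914-94719136, minus strand) is the part of its region upstream of the gene, with TGACATCA in capitals, a variant of the TRE through which JUN is known to act on its own gene. The *Fos* sequence (chr12:86814486-86814671, plus strand) is a whole region, and its capitals mark a CArG box, the site of serum response factor (SRF). The *Junb* sequence (chr8:87502658-87502835, minus strand) is also a whole region, and its capitals mark a match on the opposite strand to GNGGAAGT, a pattern of PU.1 and other ETS factors.
Jun start: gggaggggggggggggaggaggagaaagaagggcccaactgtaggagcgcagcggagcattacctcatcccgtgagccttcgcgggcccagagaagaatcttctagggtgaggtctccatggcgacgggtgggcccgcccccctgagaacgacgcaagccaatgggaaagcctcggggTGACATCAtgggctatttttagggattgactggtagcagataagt
Fos start: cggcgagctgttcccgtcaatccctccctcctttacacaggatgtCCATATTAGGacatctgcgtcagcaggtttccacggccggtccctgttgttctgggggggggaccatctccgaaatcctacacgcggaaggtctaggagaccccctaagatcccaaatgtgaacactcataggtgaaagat
Junb start: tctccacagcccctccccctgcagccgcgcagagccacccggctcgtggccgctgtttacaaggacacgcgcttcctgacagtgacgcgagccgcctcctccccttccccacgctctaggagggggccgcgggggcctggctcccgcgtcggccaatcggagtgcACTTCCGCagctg

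Away from the starts, 2 regions held a CArG box together with a sequence 1 mismatch from the CRE, and both are shown with these sites in capitals. One lies just past the 3′ end of *Junb* (chr8:87500501-87500669, minus strand) and the other downstream of *Fos* (chr12:86826979-86827152, plus strand). The sites were 12 bases apart at *Junb* and 20 bases apart at *Fos*. Of all 69362 regions on chromosomes 1 to 19, X, and Y, 25 held both kinds of site (0.0360%), and 2 of these were at AP-1 genes. This pair of sites was picked out after the matches had been seen.
Junb downstream: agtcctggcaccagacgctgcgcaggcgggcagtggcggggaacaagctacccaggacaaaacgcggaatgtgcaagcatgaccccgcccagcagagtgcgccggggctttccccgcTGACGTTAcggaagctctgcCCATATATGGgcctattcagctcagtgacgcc
Fos downstream: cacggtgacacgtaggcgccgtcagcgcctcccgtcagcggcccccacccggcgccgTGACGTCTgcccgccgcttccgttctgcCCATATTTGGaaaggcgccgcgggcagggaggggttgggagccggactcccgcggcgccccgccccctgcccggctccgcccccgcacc

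Of the 10 genes, 9 had a region whose midpoint was within 1000 bp of 1 of their starts, and *Fosl1* did not. Over all 22367 protein-coding genes on chromosomes 1 to 19, X, and Y, 12693 did (56.7%). The genes had 3 to 14 regions each, with a median of 6.5, while the median over all protein-coding genes was 3, with quartiles of 1 and 7. Of the 10 genes, 8 were above that median. Among protein-coding genes with a region at a start the median was 5, and 7 of the 10 AP-1 genes were above it. The share of such genes with fewer regions ran from 15.3% for *Jun* and *Fosl1* to 93.9% for *Junb*. The windows of the AP-1 genes were shorter, with a median of 47.8 kb against 55.4 kb for all genes. Per 100 kb of window, the median was 14.1 regions for the AP-1 genes and 4.74 for all genes, and each of the 10 was above the latter. Together the regions covered 2.88% of the 10 windows. All regions covered 0.486% of the chromosomes as a whole, which include stretches far from any gene.

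**Figure D1:**
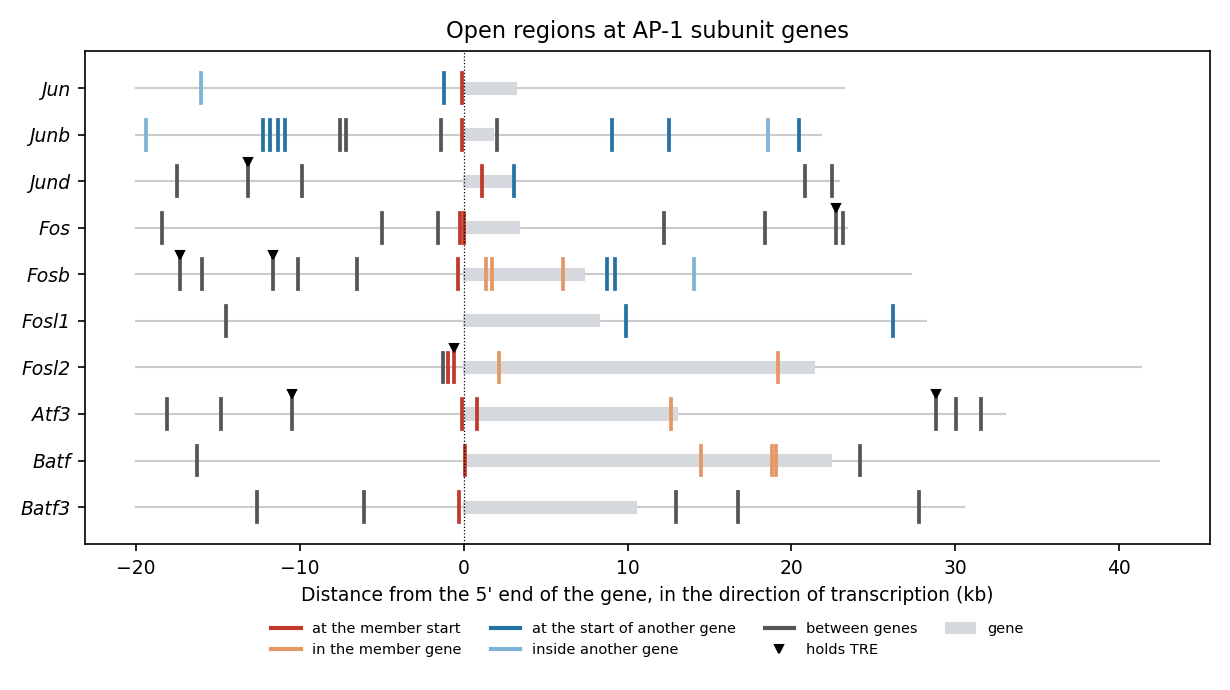
Open regions at the 10 AP-1 genes, 1 row per gene, with the distance of each region's midpoint from the 5′ end of the gene in kb on the x axis (negative is upstream). Thin lines are the windows, gray boxes the genes, colored marks the regions by what lies under them, and triangles the 7 regions with a TRE. Each gene but *Fosl1* has a mark of its own start, and 6 of the 7 triangles are more than 10 kb from the 5′ end.

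**Figure D2:**
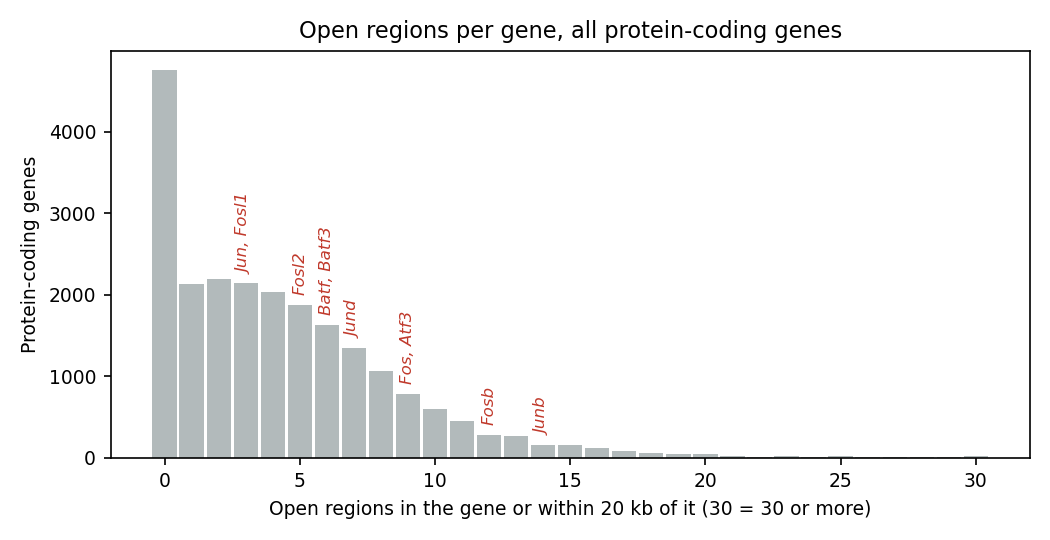
Number of protein-coding genes (y axis) by the number of open regions in the gene or within 20 kb of it (x axis, with 30 or more in the last bar). The AP-1 genes are named above the bar they belong to, from *Jun* and *Fosl1* with 3 regions to *Junb* with 14.

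The JUN genes encode proteins that have an activation domain and can bind DNA without a FOS partner. *Jun* (ENSMUSG00000052684.3, chr4:94715725-94718913, minus strand), the founding member, had 3 regions, which was more than 40.6% of all protein-coding genes had. The region at its start (chr4:94718898-94719136) was 239 bp wide, with a midpoint 104 bp upstream of the 5′ end. The center of its TGACATCA was 41.5 bp upstream. The other 2 regions were upstream too, at 1.21 kb and 16.05 kb, and both were nearer to a start of *BC042782*, a gene whose annotation reaches to the *Jun* promoter and beyond. The region at the start reached 16 bp into the gene, and no region had its midpoint in the *Jun* gene or in the 20 kb after it.

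*Junb* (ENSMUSG00000052837.4, chr8:87500811-87502617, minus strand), which can act against JUN at some promoters, had 14 regions, the most of the 10 genes. This number exceeded that of 96.4% of protein-coding genes. Its neighborhood is dense in genes, and only 3 of the 14 regions were nearer to a start of *Junb* than to one of another gene. Of the remaining regions, 7 were nearest to *Hook2*, 3 to *Rnaseh2a*, and 1 to *Prdx2*. The 3 regions nearest to *Junb* were at its start (chr8:87502658-87502835, 178 bp, 129.5 bp upstream), 1.40 kb upstream of the 5′ end, and 2.03 kb downstream of it. The last 2 each held a CArG box. The upstream one (chr8:87503861-87504169) was 309 bp wide, 1 of only 2 regions over 300 bp in the set.

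*Jund* (ENSMUSG00000071076.4, chr8:73221638-73224515, plus strand), the JUN gene that is transcribed most steadily in resting cells, had 7 regions, more than 74.9% of protein-coding genes. The region nearest to its start (chr8:73222670-73222844, 175 bp) lay 1119 bp inside the longer transcript, where it is annotated as 5′ UTR. It was 100 bp upstream of the start of the shorter transcript. The RefSeq start matched the 5′ end of the longer one, so the distance of the open region from the start of *Jund* depends on the transcript. No region was called within 1000 bp of the first base of the longer transcript. This region held CGACGTCA, 1 mismatch from the CRE, 5.5 bp from its middle. Of the other regions, 3 were 9.91 kb, 13.2 kb, and 17.5 kb upstream, and 3 were after the gene. Only the region at the start and the one 9.91 kb upstream were nearest to *Jund*, and the others were nearest to *Lsm4*, *Gm11175*, or *Pde4c*.

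The FOS genes encode the partners that cannot pair with themselves. *Fos* (ENSMUSG00000021250.7, chr12:86814840-86818223, plus strand), the standard example of an immediate early gene, had 9 regions, more than 85.7% of protein-coding genes. All 9 regions were nearest to its own starts. A pair of regions, 108 bp apart, lay at the start of the gene, and the one further downstream covered its first base. One (chr12:86814780-86814971, 192 bp) was centered 35.5 bp into the gene, and the other (chr12:86814486-86814671, 186 bp) was centered 261.5 bp upstream and held CCATATTAGG. This CArG box, centered 304.5 bp upstream of the 5′ end, has the sequence known from the serum response element of *Fos*. Further regions were 1.58 kb, 4.97 kb, and 18.4 kb upstream, and 4 were between 12.2 kb and 23.1 kb downstream of the 5′ end.

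*Fosb* (ENSMUSG00000003545.2, chr7:19888070-19895394, minus strand), which also gives rise to the long-lived splice form ΔFOSB, had 12 regions, more than 93.9% of protein-coding genes. Of these, 8 were nearest to *Fosb* and 4 to *Gm17589*. The region nearest to the 5′ end (chr7:19895689-19895842, 154 bp) was centered 371.5 bp upstream. A group of 5 regions stretched from 6.51 kb to 17.3 kb upstream with no other gene start nearer. A further 2 regions were in introns of *Fosb* and 1 was in an exon, in its UTR.

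*Fosl1* and *Fosl2* encode FRA1 and FRA2, FOS proteins without the strong activation domain of FOS. *Fosl1* (ENSMUSG00000024912.5, chr19:5447703-5455945, plus strand) had 3 regions, more than 40.6% of protein-coding genes. None was in the gene and none was nearest to *Fosl1*. The region nearest to its 5′ end (chr19:5457504-5457747, 244 bp) was 9.92 kb away, after the gene, and 76.5 bp from a start of *Ccdc85b*. Of the other 2, 1 was 46 bp from a start of *Efemp2*, and 1 was 14.5 kb upstream and nearest to *AI837181*. *Fosl2* (ENSMUSG00000029135.9, chr5:32438845-32460204, plus strand) had 5 regions, more than 59.3% of protein-coding genes, and all were nearest to *Fosl2*. Of them, 3 stood in a row before the gene, 150 bp and 180 bp apart. The closest (chr5:32438129-32438311, 183 bp) was centered 625 bp upstream, and no region was called over the first base itself.

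ATF3 and the BATF proteins pair with JUN and are mostly known as repressors or as partners of IRF proteins, and ATF3 restrains inflammatory genes in macrophages. *Atf3* (ENSMUSG00000026628.8, chr1:192994175-193007219, minus strand) had 9 regions, more than 85.7% of protein-coding genes. The region at its 5′ end (chr1:193007155-193007507) was 353 bp wide, the widest of the 74, and was centered 112 bp upstream. In it TTACGTCA, 1 mismatch from the CRE, spanned the first base of the gene. A further region of 247 bp was centered 776 bp into the gene. Of the 9 regions, 5 were nearest to *Atf3*, and the 4 at its 3′ end and beyond were nearest to *Fam71a*. *Batf* (ENSMUSG00000034266.5, chr12:87027619-87050037, plus strand) had 6 regions, more than 67.7% of protein-coding genes. The region at its start (chr12:87027612-87027762) had the width most common over all regions. Another 3 were in introns, at 14.5 kb to 19.1 kb from the 5′ end. *Batf3* (ENSMUSG00000026630.4, chr1:192922293-192932822, plus strand), which dendritic cells need for cross-presentation, also had 6 regions but none in the gene. The region at its start (chr1:192921955-192922105) had that width too and was centered 263 bp upstream. For both *Batf* and *Batf3*, all 6 regions were nearest to the gene itself. The *Batf3* region is shown because an E-box (CACGTG, the site of CLOCK and BMAL1 and of other basic helix-loop-helix factors) and an ETS match on the opposite strand follow each other directly in it, both in capitals. This pair of sites was picked out after the matches had been seen, and its share over all regions is not given here.
Batf3 start: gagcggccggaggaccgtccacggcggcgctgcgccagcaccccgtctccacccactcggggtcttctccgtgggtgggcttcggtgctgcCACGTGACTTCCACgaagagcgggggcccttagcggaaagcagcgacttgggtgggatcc

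Of the 74 regions, 37 were upstream of their gene, 13 in it, and 24 after it. There were 12 at a start of the AP-1 gene itself and 13 at a start of another protein-coding or lncRNA gene. Another 3 were in exons and 6 in introns of the AP-1 gene, 4 were inside other genes, and 36 lay between genes (48.6%, 95% Wilson confidence interval 37.6% to 59.8%). Over all regions, 32.9% lay between genes. Introns, of any gene, held 10.8% of the 74 regions (5.58% to 19.9%) and 34.1% of all regions. The shares in introns and between genes depend on the rule, which adds 20 kb on either side of genes of 1807 to 22419 bp. How far the rule accounts for them was not tested. Within 1000 bp of any gene start there were 33.8% (24.05% to 45.1%) against 29.4%, and in exons 6.76% (2.92% to 14.9%) against 3.6%. The intervals for starts include the share over all regions, and so do those for exons. The nearest annotated start was one of an AP-1 gene for 45 regions (60.8%, 49.4% to 71.1%). For the other 29 it was a start of another gene.

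The TRE was then searched for in the regions, since AP-1 is known to bind its own genes. It was found in 7 of 74 regions (9.46%, 95% Wilson confidence interval 4.66% to 18.3%), 1 site in each, and in 4553 of all 69362 regions (6.56%). The interval includes the share over all regions, so a difference was not detectable with 74 regions. The 7 regions were at 5 genes, and *Jun*, *Junb*, *Fosl1*, *Batf*, and *Batf3* had none. Only the *Fosl2* site, 615 bp upstream, was within 5 kb of a 5′ end. The others were 10.5 kb and 28.8 kb from that of *Atf3* (chr1:193017607-193017768 and chr1:192978334-192978484), 11.6 kb and 17.3 kb from that of *Fosb* (chr7:19906931-19907212 and chr7:19912602-19912870), 13.2 kb from that of *Jund* (chr8:73208385-73208535), and 22.6 kb from that of *Fos* (chr12:86837458-86837608). In 5 of the 7 regions the nearest start was one of an AP-1 gene. The *Jund* region was nearest to *Lsm4*, and the *Atf3* region at 28.8 kb to *Fam71a*. The 10 windows held 121 TREs in all, and 7 of them (5.79%) were in open regions. Over the chromosomes as a whole, 4933 of 419021 were (1.18%), which is to be read beside the larger share of the windows that was open.

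The 7 sites are shown in the direction of transcription of their gene with 29 bases each, the TRE in capitals. At the *Fosb* site 17.3 kb upstream, the bases directly before the TRE are TGACGTAA, 1 mismatch from the CRE, so that the sites abut.
Atf3 28.8 kb downstream: gactgctggagTGAGTCAagttttcccaa
Atf3 10.5 kb upstream: aggaaacagggTGACTCAggtggaacact
Fosb 11.6 kb upstream: acactgcatggTGAGTCActacacagaca
Fosb 17.3 kb upstream: cgatgacgtaaTGAGTCAtcagcggggat
Jund 13.2 kb upstream: gcctctgcctgTGAGTCAgcatcaccatg
Fos 22.6 kb downstream: aacggcagagaTGACTCAttggggaaagg
Fosl2 615 bp upstream: tgccattgtagTGACTCAtctcgggcaga

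The whole regions around the *Jund* and *Fosl2* sites are given as well. The *Jund* one is in the window of the gene that the study named, though nearest to *Lsm4*. The *Fosl2* one holds the only TRE near a start. The *Jund* region is chr8:73208385-73208535 and the *Fosl2* region chr5:32438129-32438311, both on the plus strand.
Jund upstream: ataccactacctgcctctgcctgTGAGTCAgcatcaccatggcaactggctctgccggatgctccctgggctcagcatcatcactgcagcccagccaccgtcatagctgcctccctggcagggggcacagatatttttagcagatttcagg
Fosl2 upstream: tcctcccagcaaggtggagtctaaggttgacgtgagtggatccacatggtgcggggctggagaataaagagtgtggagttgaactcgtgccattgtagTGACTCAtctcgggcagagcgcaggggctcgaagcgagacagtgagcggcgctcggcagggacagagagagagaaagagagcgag

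The exact CRE was in 0 of the 74 regions, where a count of 0 allows a share of up to 4.05%, and in 1.18% of all regions. With 1 mismatch allowed outside its central CG, a CRE-like sequence was in 11 regions at 6 genes (14.9%, 8.51% to 24.7%), and in 3.93% of all regions, in which exact CREs are included. These were single sites, of which the window of *Fosb* had 4, those of *Fos* and *Junb* 2 each, and those of *Jund*, *Fosl2*, and *Atf3* 1 each. The *Fosb* site 9.20 kb downstream of the 5′ end was in a region nearest to *Gm17589*. The *Junb* site 10.9 kb upstream was in one nearest to *Hook2*. Among them were TGACGTAA in the start region of *Fosb*, TTACGTCA at *Atf3*, and CGACGTCA at *Jund*. Regions within 1000 bp of any gene start held such a sequence in 6 of 25 cases here (95% interval 11.5% to 43.4%) and in 6.63% of cases over all such regions. Only 4 of the sites were at a start of the AP-1 gene itself. Away from starts, the shares were 10.2% (4.44% to 21.8%) and 2.80%. The CRE-like pattern keeps a CG. Away from starts, the median CpG ratio (observed over expected) was 0.402 here and 0.221 over all such regions. At starts it was 0.719 and 0.702. How far CpG content accounts for the shares was not tested.

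The CArG box was in 4 of the 74 regions (5.41%, 2.12% to 13.1%) and in 0.864% of all regions. All 4 were at *Fos* and *Junb*, which had 2 regions each. The boxes were CCATATTAGG and CCATATTTGG at *Fos*, and CCATATATGG and CCTAATATGG at *Junb*. The site in the *Jun* start region, TGACATCA, was in 2 of the 74 regions (2.70%) and in 1.85% of all regions. Its other match was in the region with the TRE downstream of *Fos*.

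**Figure D3:**
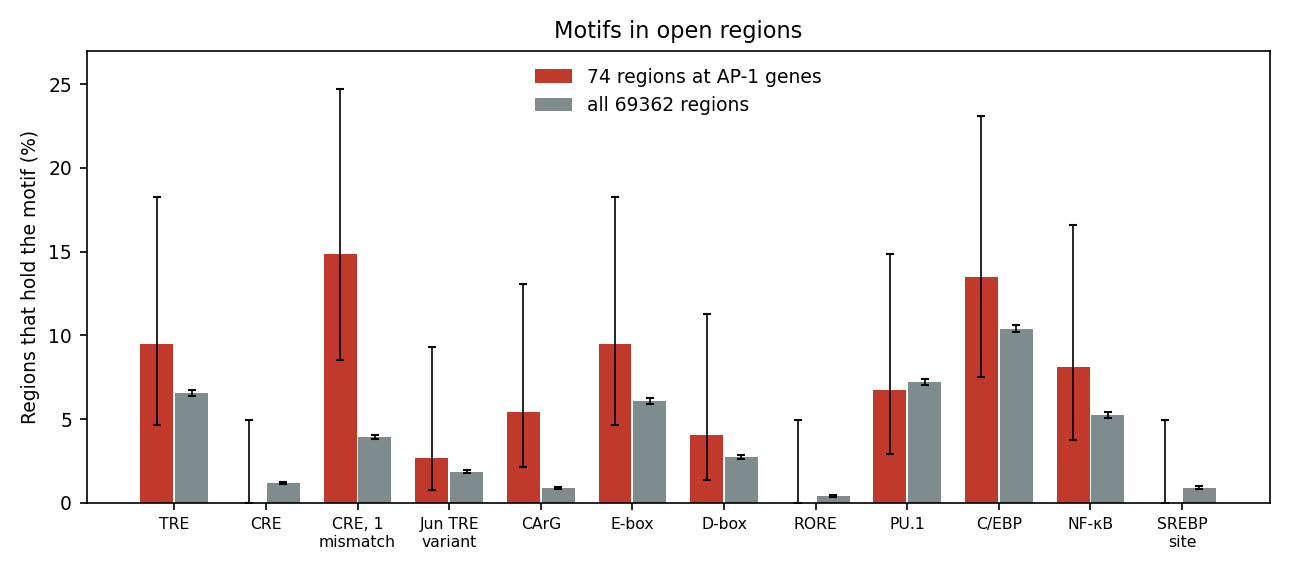
Share of open regions that hold each motif, in percent, for the 74 regions at AP-1 genes (red) and for all 69362 regions (gray). Whiskers are 95% Wilson intervals (for counting error alone). The intervals of the 74 regions lie above the gray bars for the CRE with 1 mismatch allowed and for the CArG box.

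Motifs of clock and lipid factors were searched for as well. The E-box was in 7 regions (9.46%, 4.66% to 18.3%, against 6.08% of all regions), of which 3 were in the *Junb* window and 2 in that of *Batf3*. The 3 in the *Junb* window were all nearest to a start of *Hook2* or *Rnaseh2a*, not of *Junb*. The D-box TTATGNAA, bound by DBP and E4BP4, was in 3 regions (4.05%, against 2.74%), with 1 at *Jund* and 2 at *Fosb*. The RORE, to which REV-ERBs bind, and TCACNCCAC, a site of SREBP, were in 0 of the 74, and were rare over all regions (0.407% and 0.901%). For the factors of macrophages and of inflammation, the intervals over the 74 regions included the share over all regions. The PU.1 pattern was in 5 regions (6.76%, 2.92% to 14.9%, against 7.20%), the C/EBP pattern TTGCNNAA in 10 (13.5%, 7.51% to 23.1%, against 10.4%), and the NF-κB pattern in 6 (8.11%, 3.77% to 16.6%, against 5.23%). Within 1000 bp of any gene start, the C/EBP pattern was in 5 of 25 regions (20%, 8.86% to 39.1%), against 6.57% of all such regions. Of these, those in the *Fosb* and *Fosl1* windows were at starts of *Gm17589* and *Ccdc85b*, not of the AP-1 gene. At starts, the intervals for PU.1 and NF-κB included the share over all such regions. Away from starts, the C/EBP and NF-κB patterns were each in 5 of 49 regions (10.2%, 4.44% to 21.8%). This interval included the C/EBP share over all such regions and lay above that of NF-κB, 4.35%. The interval for PU.1 included its share there. None of the 10 motifs (TRE, CRE, CArG box, E-box, RORE, D-box, PU.1, C/EBP, NF-κB, and SREBP site, on both strands) was in 43 regions (58.1%), and over all regions this share was 65.6%. At *Jund*, the D-box and the C/EBP match are the same 8 bases.

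The regions at AP-1 genes had a median width of 176.5 bp and reached 353 bp, while the median over all regions was 160 bp. Of the 74, 21 had the narrowest and most common width in the set (28.4%), against 46.5% of all regions. At starts the median was 186 bp here and 188 bp over all regions there, and away from starts 16 of 49 (32.7%) here and 53.6% of all such regions had the most common width. By gene, the median ran from 156.5 bp for *Batf* to 239 bp for *Jun*.

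**Figure D4:**
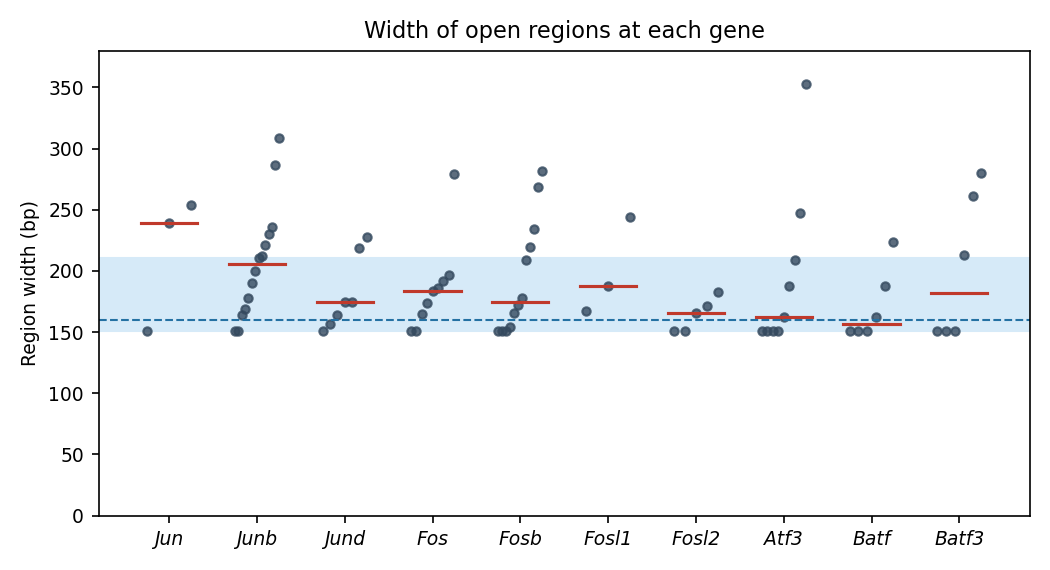
Width in bp of each open region (points) at the 10 AP-1 genes, with the median of each gene in red. The dashed line is the median of all regions, 160 bp, and the blue band runs from their lower to their upper quartile, the latter 211 bp. The widest point is the *Atf3* start region, 353 bp.

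Base composition differed with the position of the regions. The 25 regions at a gene start had a median GC content of 61.9% and a CpG ratio (observed over expected) of 0.719, close to the 61.5% and 0.702 of all regions at starts. The 49 regions away from starts had a median GC content of 55.4% and a CpG ratio of 0.402, against 50.6% and 0.221 for all such regions. The region with the highest GC content, 77.0%, was the one with the CArG box and CRE-like site 12.2 kb downstream of the *Fos* 5′ end.

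**Figure D5:**
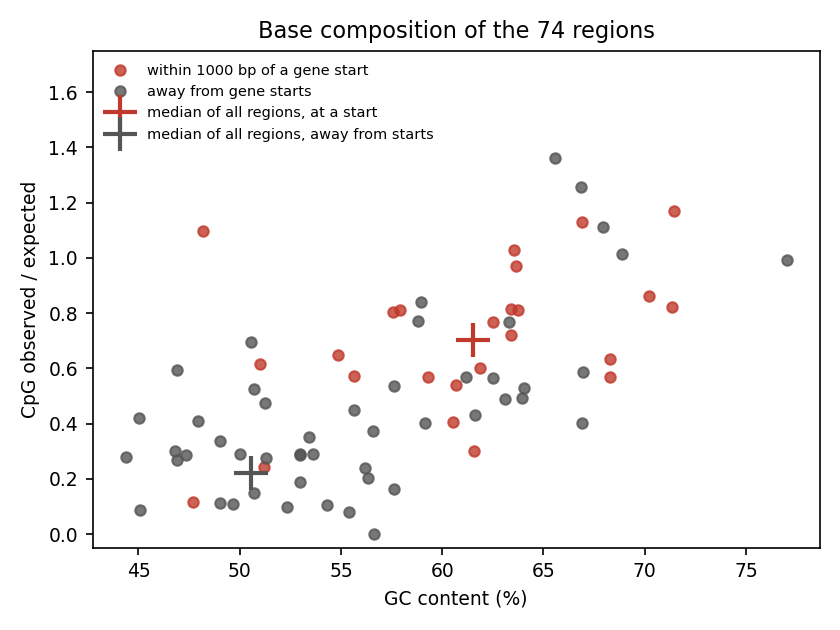
GC content (x axis, percent) and CpG ratio, observed over expected (y axis), of the 74 regions, in red for those within 1000 bp of any gene start and in gray for the others. Crosses are the medians over all regions of each kind. Gray points lie on both sides of their cross and overlap with the red ones.

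Other genes around AP-1 were looked at with the same rule. The other bZIP genes listed, such as *Atf2*, *Maf*, *Jdp2*, and *Nfe2l2*, had an open start in 14 of 14 cases and a median of 7.5 regions. The kinases of the MAPK pathways that phosphorylate JUN and FOS had an open start in 9 of 10 cases and a median of 5 regions. The exception, *Mapk10*, encodes JNK3, which is found mostly in neurons, and had 0 regions. SRF and its cofactors had an open start in 6 of 6 cases with a median of 7.5 regions. For other immediate early genes (*Egr1*, *Dusp1*, *Zfp36*, *Klf6*, and 10 more) these were 14 of 14 and 6.5. The 6 genes of PDGF ligands and receptors all had an open start and had a median of 5 regions. Per 100 kb, the other immediate early genes had 15.4 regions and the other bZIP genes 12.7, beside the 14.1 of the AP-1 genes, and the kinases had 4.91, near the 4.74 of all genes.

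TF genes of liver cell types were set beside the AP-1 genes. Macrophage lineage TF genes such as *Spi1* and *Irf8* had a median of 9 regions, or 13.1 per 100 kb, with an open start in 9 of 10. Hepatocyte TF genes such as *Hnf4a* had 8.5 regions, or 11.6 per 100 kb, with an open start in 10 of 10. The CArG box was in 8 of the 99 regions at the other immediate early genes (8.08%, 4.15% to 15.1%), and in 0 of 84 and 0 of 94 regions at the macrophage and hepatocyte TF genes, where a count of 0 allows up to 3.57% and 3.19%. The Wilson intervals of these 2 counts of 0 reach 4.37% and 3.93%. The CRE-like sequence was in 11.1% of regions at the other immediate early genes (6.32% to 18.8%). It was in 2.38% (0.655% to 8.27%) and 3.19% (1.09% to 8.97%) at the macrophage and hepatocyte TF genes. Both of these intervals overlap with that of the other immediate early genes. The TRE was in 9.09% of regions at the other immediate early genes, 10.7% at macrophage TF genes, and 4.26% at hepatocyte TF genes, and the intervals of these shares overlap.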

How the data were processed

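Per the study's methods, the Kundaje laboratory's pipeline for ATAC-Seq was used, in which adapters were trimmed from the fast-ATAC-Seq reads, Bowtie placed them on mm9, and alignments of replicates were pooled before open regions were called. The submitters' processing notes also name HOMER. The program within that pipeline that called the regions, its threshold, and how the groups' regions were joined are not given in the sources used here. The deposited list holds a chromosome, start, and end per region and no count, score, or sample, so the depth per library and its precision are not known. Coordinates are given from 1. Genes come from GENCODE vM1 and sequences from NCBIM37, the source of mm9. The 137 regions on other sequences were not annotated. RefSeq promoters (GRCm38.p6) of 9 of the 10 genes were matched to NCBIM37 by exact sequence.

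Counts, widths, GC content, and motif shares were computed beside all regions and all protein-coding genes, with no test. Shares have 95% Wilson intervals (counting error alone), and for a share of 0 the limit is 3 counts. Motifs were searched on both strands within the deposited region. The counting and the search were tested on simulated data. Python 3.11.15, NumPy 2.4.6, pandas 2.3.3, SciPy 1.17.1, and matplotlib 3.10.9 were used.

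All 10 genes are named, with the region nearest to each 5′ end, each region with a TRE, and the widest region. Regions with a CArG box or a CRE-like sequence and the TGACATCA pattern were picked after values were seen, as was the pair of sites at *Batf3*. The genes, lists, and motifs were chosen with earlier results of these data known. One gene of the planned list of other bZIP genes is not reported here and was left out of its counts.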

Additional observations from a re-analysis of the deposited data

How the results depend on the processing

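No paired analysis was possible because the deposited regions carry no values by sample, and for that reason leaving out a replicate was not run either. Of 25 changes of setting, 16 left the value within 1.5 times of the reported one (counts), within its 95% Wilson confidence interval (shares), or within 1 SD over the regions (widths). The number of regions followed the window. It was 13 with no flank, 33 with 5 kb, 42 with 10 kb, and 154 with 50 kb, and it was 45 when the nearest start had to be one of an AP-1 gene. The median per gene was 14.5 with 50 kb, against 6 over all protein-coding genes. The TRE share was 3.03% (1 of 33) with a flank of 5 kb, and 23.0% in windows of 1000 bp, where it was 19.5% over all regions. The CRE share of 0 became 14.9% with 1 mismatch. The number of genes with an open start was 8 of 10 by the 5′ end alone, where *Jund* was lost (53.1% of all protein-coding genes), and 6 of 10 within 250 bp, near the 51.5% of all protein-coding genes.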
